A study of Mus musculus with 212 samples.

Results

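The genes described here are 47 mouse genes of cell division, 26 that act in mitosis and 21 that act in DNA replication, of 47631 genes in the deposited table. They were chosen as a list of symbols, matched to Ensembl gene IDs, by a rule that uses no measured value, and all 47 were found. The list was, however, chosen with earlier results of these data known. Transcript levels came from poly(A) RNA-seq of confluent skin fibroblasts of C57BL/6 mice, either Bmal1-/- or WT; Bmal1 (gene symbol Arntl) encodes a transcription factor of the circadian clock. Both genotypes received 100 nM dexamethasone for 15 min, which sets the clocks of cultured cells to a common phase, and were then kept in the dark in medium buffered with HEPES; the first harvest came 48 h later, and each time point used 3 wells. Each genotype gave 5 time courses: PM and AM, with 17 time points each at 3 h intervals up to CT48, and 27, 32 and 37 °C, with 24 time points each at 2 h intervals up to CT46. CT is the label of a harvest time in hours, and the labels do not say what PM and AM stand for. Each time point had 1 library. The sources used here do not say whether wells were pooled or how many cell preparations there were, so the p-values below reflect how libraries vary along a course, and not how preparations or animals vary.

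Progress through the cell cycle needs bursts of transcription. Genes for DNA replication are switched on by E2F factors at the entry to S phase, and genes for mitosis are switched on in G2 by the B-MYB-MuvB and FOXM1 complexes. In cells that have left the cycle, as fibroblasts do at confluence, the DREAM complex with RB-family proteins holds both sets down. Its contacts with promoters are known to include CHR elements in mitosis genes and E2F elements in replication genes, often with CCAAT boxes bound by NF-Y nearby.

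Levels are given as FPKM, the fragments of a gene per length of its transcript and per depth of the library. Estimated depth, in mega-reads (M), ran between 9.87 M and 32.3 M per library, with a median of 23.6 M. Arntl was read in both genotypes, with course medians of 5.98 to 7.91 FPKM in Bmal1-/- cells and 5.03 to 7.38 FPKM in WT cells. At 27 °C every Bmal1-/- library used (7.08 to 9.26 FPKM) lay above every WT library used (2.81 to 6.83 FPKM). In the other courses the ranges of the genotypes overlapped. A gene-level value does not show which exons are missing and so checks neither genotype. A pair of CT14 libraries, 1 per genotype at 27 °C, had values opposite to their labels. Cdkn1a, which encodes the CDK inhibitor p21, was 97.8 to 136 FPKM in the other 23 Bmal1-/- libraries at 27 °C and 3.07 to 7.12 FPKM in the other 23 WT libraries. It was 3.87 FPKM in the CT14 library labelled Bmal1-/- and 109.5 FPKM in the one labelled WT, so both were left out. All 10 fibroblast markers were above 1 FPKM in some library, with sums of 10950 to 23960 FPKM in Bmal1-/- cells and 8043 to 19420 FPKM in WT cells. Of 5 keratinocyte markers, 4 were never above 1 FPKM, and the sum reached 1.23 FPKM in Bmal1-/- cells and 2.07 FPKM in WT cells. The fibroblast sum was 8043 to 10590 FPKM in WT cells at 27 °C and 11400 to 14200 FPKM at 37 °C. Single fibroblast markers went both ways between genotypes, in PM with Pdgfra at log2 -2.04, Pdgfrb at -1.35 and Dcn at 1.25. Sums of other lists also moved with genotype or temperature. The 5 macrophage and leukocyte markers, of which Ptprc and Adgre1 were never above 1 FPKM, summed to 1.58 to 3.64 FPKM in Bmal1-/- AM and 4.09 to 7.16 FPKM in WT AM. At 27 °C that sum was 18 to 41.5 FPKM in Bmal1-/- cells and 24.9 to 41.4 FPKM in WT cells, against 1.17 to 3.07 FPKM and 6.43 to 10 FPKM at 37 °C, with Cd68 higher at 27 °C by log2 3.73 and 3.16. The 4 endothelial markers, 1 of them never above 1 FPKM, summed to 1.15 to 2.87 FPKM in Bmal1-/- AM and 3.32 to 6.28 FPKM in WT AM. The 5 melanocyte and Schwann cell markers summed to 0.248 to 2.22 FPKM in Bmal1-/- cells and 2.87 to 21.2 FPKM in WT cells over all courses, with Dct and Tyrp1 never above 1 FPKM. Their part in the results below was not tested. The 32 °C libraries stood apart in that Gm26377, annotated as a miRNA gene, held 23.3% to 34.2% of all FPKM in Bmal1-/- cells and 18.8% to 24.4% in WT cells, while the top gene of any library in the other courses held at most 4.46%.

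Promoter stretches are shown first because known contacts of the DREAM complex with promoters include the elements named above. Windows from 250 bases before to 50 bases after an annotated start were taken from RefSeq (GRCm38.p6), and were held for 22 mitosis members and 17 replication members. The motifs were searched on both strands and were CHR, meaning either TTTGAA or the variant TTCGAA, the letters CCAAT themselves, and E2F-type letters, meaning the sequence TTCCCGC, the sequence TTGGCGC, the sequence TTCGCGC or the sequence TTGCCGC. A reverse-strand match appears as its reverse complement, and a reverse TTGGCGC can overlap CCAAT. CHR letters were in 17 of 22 mitosis members (77.3%) and 2 of 17 replication members (11.8%), against 21.7% of the 27025 genes with a window. E2F-type letters were in 3 of 22 mitosis members (13.6%) and 12 of 17 replication members (70.6%), against 10.9% of those genes. CCAAT was in 17 of 22 (77.3%) and 11 of 17 (64.7%), against 41.1%. The stretches below run from 170 bases before to 30 bases after the start, 5′ to 3′ on the gene's own strand, with the matches in capitals; positions count the start as 1, with no 0. Top2a and Ccnb2 are shown as mitosis members with CHR and several CCAAT letters, Cenpa and Cdc20 because they were higher at 27 °C in WT cells, Ccnb1 as a member without CHR letters, and Hjurp because its difference ran the other way. Mcm5, Uhrf1 and Mcm6 stand for the replication members with E2F-type letters, and Rrm1 for one that was higher in Bmal1-/- cells.
Ccnb2 (chr9:70421525-70421724, minus strand): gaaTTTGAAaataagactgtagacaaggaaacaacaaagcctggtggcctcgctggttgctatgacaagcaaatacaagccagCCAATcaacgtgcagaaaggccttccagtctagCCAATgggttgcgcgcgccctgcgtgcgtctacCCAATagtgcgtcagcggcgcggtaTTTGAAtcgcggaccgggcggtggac
Cenpa (chr5:30666716-30666915, plus strand): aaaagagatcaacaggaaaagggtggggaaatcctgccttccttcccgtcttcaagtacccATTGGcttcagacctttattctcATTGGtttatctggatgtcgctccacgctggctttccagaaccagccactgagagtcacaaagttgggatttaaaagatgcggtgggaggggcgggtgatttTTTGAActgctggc
Cdc20 (chr4:118437314-118437513, minus strand): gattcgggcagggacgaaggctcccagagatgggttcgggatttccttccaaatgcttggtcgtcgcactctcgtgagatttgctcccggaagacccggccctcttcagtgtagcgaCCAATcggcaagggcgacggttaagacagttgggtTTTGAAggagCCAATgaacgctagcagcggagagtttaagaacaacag
Top2a (chr11:99024160-99024359, minus strand): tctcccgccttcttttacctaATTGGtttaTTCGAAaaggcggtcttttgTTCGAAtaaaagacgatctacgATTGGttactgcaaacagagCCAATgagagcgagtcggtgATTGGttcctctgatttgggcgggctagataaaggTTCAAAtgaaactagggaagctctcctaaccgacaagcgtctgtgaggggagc
Ccnb1 (chr13:100786457-100786656, minus strand): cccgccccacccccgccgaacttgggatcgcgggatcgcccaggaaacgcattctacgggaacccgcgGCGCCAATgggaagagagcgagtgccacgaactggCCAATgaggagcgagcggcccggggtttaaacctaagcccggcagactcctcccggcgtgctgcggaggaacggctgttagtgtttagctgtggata
Hjurp (chr1:88277550-88277749, minus strand): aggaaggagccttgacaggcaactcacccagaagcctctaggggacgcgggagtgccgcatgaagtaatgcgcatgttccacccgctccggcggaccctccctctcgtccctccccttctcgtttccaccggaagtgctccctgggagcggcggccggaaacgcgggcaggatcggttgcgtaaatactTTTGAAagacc
Mcm5 (chr8:75109339-75109538, plus strand): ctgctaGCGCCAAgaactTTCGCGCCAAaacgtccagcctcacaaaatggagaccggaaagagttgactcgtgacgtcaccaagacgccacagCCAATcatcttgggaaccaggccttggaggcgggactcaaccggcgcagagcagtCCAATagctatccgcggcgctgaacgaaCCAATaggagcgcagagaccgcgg
Mcm6 (chr1:128359676-128359875, minus strand): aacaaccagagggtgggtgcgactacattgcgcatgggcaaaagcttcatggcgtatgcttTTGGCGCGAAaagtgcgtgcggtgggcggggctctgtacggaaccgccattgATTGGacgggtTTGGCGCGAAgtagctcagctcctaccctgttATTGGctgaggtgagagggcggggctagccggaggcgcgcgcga
Uhrf1 (chr17:56303167-56303366, plus strand): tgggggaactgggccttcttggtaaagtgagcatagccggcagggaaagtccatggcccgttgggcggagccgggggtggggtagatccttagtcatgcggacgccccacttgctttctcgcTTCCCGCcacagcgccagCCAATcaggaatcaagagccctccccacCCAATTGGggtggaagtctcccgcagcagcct
Rrm1 (chr7:102441525-102441724, plus strand): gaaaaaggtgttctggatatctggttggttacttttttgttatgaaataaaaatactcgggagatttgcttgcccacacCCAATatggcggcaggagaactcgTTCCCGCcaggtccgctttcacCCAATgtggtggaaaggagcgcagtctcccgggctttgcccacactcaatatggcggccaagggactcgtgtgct

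In the Ccnb2 stretch the 3 CCAAT matches lie 33 bases apart, at positions -87, -54 and -21, with a CHR match at 5. Top2a has CHR matches at -140, -120 and -23 and CCAAT matches at -149, -98, -78 and -58. Hjurp has a CHR match at 20 and no other match in the printed stretch, and Rrm1 has an E2F-type match at -67 between CCAAT matches at -91 and -45. The Uhrf1 stretch belongs to the first of 2 windows held for that gene. No match says only that these letters are absent from this window, and no binding was measured.

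**Figure D1:**
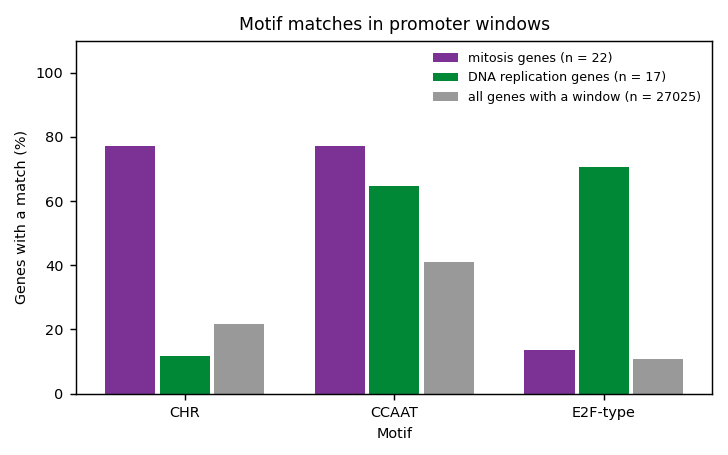
Bars show the share of genes (%, vertical axis) with at least 1 match to CHR, CCAAT or E2F-type letters in the RefSeq promoter window, for mitosis members (n = 22), replication members (n = 17) and all genes with a window (n = 27025). CHR letters were in 77.3% of mitosis members and 11.8% of replication members, and E2F-type letters in 13.6% and 70.6%.

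The first comparison asks how cells without Bmal1 differ from WT cells in the PM and AM courses. Bmal1-/- cells held less of nearly every mitosis transcript and of part of the replication transcripts. Fits used log2(FPKM + 1) in limma, and a gene was called lower or higher at a Benjamini-Hochberg adjusted p under 0.05 together with at least a 2-fold difference on that scale. All 26 mitosis and 21 replication members passed the filter of a mean of at least 1 FPKM here. That mean covers both genotypes, so a member low in Bmal1-/- cells can pass through its WT libraries alone. Cdc6 did so, with means of 0.47 FPKM in Bmal1-/- AM and 0.53 FPKM in Bmal1-/- PM. Ccne2, counted as lower below, did so with 0.55 and 0.63 FPKM in the same courses. In PM, 24 of 26 mitosis members were lower and 0 higher, and in AM 25 were lower and 0 higher, against 8.23% (PM) and 7.78% (AM) of 13307 genes called lower and 7.35% and 6.86% called higher. Their median log2 difference was -1.76 in PM and -1.69 in AM, beside -0.01 and 0.02 over all genes tested. Of 21 replication members, 8 were lower in PM and 11 in AM, with medians of -0.80 and -1.02, and 0 were higher. At an unadjusted p under 0.05, all 26 mitosis members in both courses, 21 replication members in PM and 20 in AM differed in either direction, against 82.9% (PM) and 83.1% (AM) of all genes. Levels are per culture, so fewer cycling cells and less RNA per cycling cell cannot be told apart.

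The regulators that drive cells into mitosis are the A- and B-type cyclins, their partner CDK1 and the mitotic kinases. In this group 8 of 9 members were lower in PM and 9 of 9 in AM. Ccna2, cyclin A2, had lowest, median and highest values of 0.480, 0.796 and 1.27 FPKM in Bmal1-/- PM, against 9.37, 11.2 and 13.4 FPKM in WT PM. In AM it had 0.611, 1.25 and 1.71 FPKM in Bmal1-/- cells, against 10.0, 12.8 and 19.7 FPKM in WT cells. The genotypes did not overlap in either course, and the log2 difference was -2.75 ± 0.06 (SE; limma adjusted p = 6.43e-45) in PM and -2.74 ± 0.06 in AM. Cdk1 differed less, with 15.5, 18.5 and 23.8 FPKM in Bmal1-/- PM against 24.6, 35 and 45.5 FPKM in WT PM. Its log2 difference of -0.88 ± 0.07 in PM did not reach 2-fold, while -1.04 ± 0.07 in AM did. The B-type cyclins were lower as well, Ccnb1 with log2 differences of -1.53 in PM and -1.62 in AM and Ccnb2 with -1.76 and -1.54. For the kinases, Bub1b (spindle checkpoint) gave -1.90 and -2.02, Plk1 (polo kinase) -1.66 and -1.75, Aurka (Aurora A) -1.42 and -1.41, Aurkb (Aurora B) -1.71 and -1.26, and Bub1 -1.22 and -1.75, with PM before AM, and each was called lower.

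All 3 genes of chromosome structure and the passenger complex were lower in both courses. Top2a, the topoisomerase that untangles sister DNA, had 2.18, 3.42 and 5.05 FPKM in Bmal1-/- PM, against 23.7, 29.3 and 40.6 FPKM in WT PM. Its AM values were 3.13, 4.52 and 5.66 FPKM in Bmal1-/- cells, against 16.9, 26.3 and 31.2 FPKM in WT cells. Every Bmal1-/- library lay below every WT library of its course, with log2 differences of -2.81 ± 0.07 (limma adjusted p = 1.6e-40) in PM and -2.25 ± 0.07 in AM. Mki67, the proliferation marker Ki-67 that coats mitotic chromosomes, had 0.637, 0.854 and 1.12 FPKM in Bmal1-/- PM, against 7.09, 9.11 and 13.8 FPKM in WT PM. In AM its values were 0.735, 1.30 and 2.07 FPKM in Bmal1-/- cells, against 4.58, 7.60 and 9.81 FPKM in WT cells, again without overlap. Mki67 was lower by -2.46 ± 0.06 in PM and -1.87 ± 0.06 in AM, and Birc5 (survivin, of the chromosomal passenger complex) by -1.77 and -1.79.

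At the centromere and kinetochore, 5 of 6 members were lower in each course and Hjurp was the exception. Cenpa, the histone H3 variant that marks centromeres, had 0.938, 2.34 and 3.88 FPKM in Bmal1-/- PM, against 12.9, 16 and 25.8 FPKM in WT PM. The AM courses gave 1.13, 3.12 and 4.84 FPKM in Bmal1-/- cells, against 15.8, 21.7 and 28.2 FPKM in WT cells. The log2 differences were -2.42 ± 0.11 in PM and -2.52 ± 0.11 in AM, and the genotypes stood apart. Hjurp, the chaperone that loads CENPA at centromeres, had 39.8, 48.9 and 65.4 FPKM in Bmal1-/- PM, against 39, 44 and 50.7 FPKM in WT PM. AM values were 33.5, 40.8 and 52.6 FPKM in Bmal1-/- cells, against 27.3, 32.2 and 43.6 FPKM in WT cells, with overlap in both courses. Its log2 differences were 0.19 ± 0.04 and 0.33 ± 0.04 in PM and AM, under 2-fold. The outer kinetochore genes Ndc80 and Nuf2 gave -1.58 and -1.86 in PM and -1.60 and -1.90 in AM. Cenpe, a kinetochore motor, gave -1.82 and -1.75, and Cenpf, a kinetochore protein, -2.14 and -1.5; in AM the Cenpf values of the genotypes overlapped, at 0.145 to 1.71 FPKM in Bmal1-/- cells and 1.35 to 5.38 FPKM in WT cells.

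Spindle and exit genes completed the set. All 6 spindle members were lower in each course, with PM before AM in the values here. Kif20a (a kinesin of cytokinesis) was lower by -2.14 and -1.93, and Kif23 (a kinesin of the spindle midzone) by -1.93 and -1.73. Kif2c (a microtubule depolymerase) gave -1.79 and -1.65, and Kif11 (the motor that separates spindle poles) -1.71 and -1.54. Tpx2 (spindle assembly) gave -1.65 and -1.47, and Nusap1 (a spindle-associated protein) -1.42 and -1.52. Ube2c, the E2 enzyme of the anaphase-promoting complex, had 0.945, 2.11 and 2.78 FPKM in Bmal1-/- PM, against 12.6, 15.6 and 22.6 FPKM in WT PM. In AM it had 1.72, 3.53 and 4.74 FPKM in Bmal1-/- cells, against 11.6, 19.1 and 24.1 FPKM in WT cells, so that the genotypes did not overlap and the differences were -2.44 ± 0.09 and -2.15 ± 0.09. Cdc20, the activator of the same complex, was lower by -1.43 and -1.37.

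Replication members differed from each other within most roles. Of the 6 subunits of the MCM helicase, Mcm5, Mcm3 and Mcm6 were lower in both courses, and Mcm2 reached 2-fold in AM and not in PM. Mcm5 had 1.13, 1.37 and 2.11 FPKM in Bmal1-/- PM against 4.95, 5.75 and 7.92 FPKM in WT PM. For AM the values were 1.16, 1.62 and 2.24 FPKM in Bmal1-/- cells against 5.74, 7.64 and 9.21 FPKM in WT cells. Its log2 differences of -1.48 ± 0.05 and -1.69 ± 0.05 came with no overlap, and those of Mcm6 were -1.14 and -1.27. Mcm3 had 4.86, 7.51 and 8.73 FPKM in Bmal1-/- PM against 15.1, 18.6 and 23.5 FPKM in WT PM, also without overlap, with differences of -1.26 ± 0.06 in PM and -1.52 ± 0.06 in AM. Mcm2 had 11.8, 17.7 and 29.6 FPKM in Bmal1-/- PM against 20.9, 33.8 and 45 FPKM in WT PM, with overlap, and differences of -0.83 ± 0.10 in PM and -1.21 ± 0.10 in AM. Mcm4 (-0.47 and -0.75) and Mcm7 (-0.82 and -0.90) stayed within 2-fold. Uhrf1, which keeps DNA methylation through replication, had the largest replication difference on the log2(FPKM + 1) scale, though not as a ratio of FPKM medians. It had 0.970, 2.04 and 2.88 FPKM in Bmal1-/- PM against 7.72, 11.5 and 16.6 FPKM in WT PM. In AM it had 1.44, 2.74 and 4.31 FPKM in Bmal1-/- cells against 5.92, 12.8 and 15.5 FPKM in WT cells, and the log2 differences were -2.06 ± 0.09 (limma adjusted p = 3.05e-28) and -1.83 ± 0.09. Among the chromatin assembly factor subunits, Chaf1a was lower (-1.09 and -1.02), and Chaf1b gave -0.68 and -0.83, under 2-fold.

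Pole, the catalytic subunit of DNA polymerase epsilon, had 0.497, 0.885 and 1.31 FPKM in Bmal1-/- PM against 3.88, 5.05 and 5.88 FPKM in WT PM, and its log2 differences were -1.64 ± 0.06 in PM and -1.57 ± 0.06 in AM. Pcna, the sliding clamp, differed little: it had 9.58, 11.3 and 13.4 FPKM in Bmal1-/- PM and 9.85, 12.2 and 13.6 FPKM in WT PM, with differences of -0.09 ± 0.04 and -0.49 ± 0.04. Prim1, a primase subunit, gave -0.69 and -0.91. In nucleotide synthesis, Tyms (thymidylate synthase) had 5.19, 6.92 and 9.08 FPKM in Bmal1-/- PM against 13.1, 16.6 and 22 FPKM in WT PM and was lower by -1.13 in PM and -1.31 in AM, and Rrm2, the cell-cycle subunit of ribonucleotide reductase, by -1.12 in AM and by -0.80, under 2-fold, in PM. Rrm1, the large subunit of the same enzyme, ran the other way: in AM it had 21.4, 23.8 and 31.3 FPKM in Bmal1-/- cells against 15.7, 17.4 and 20.9 FPKM in WT cells, without overlap. Its log2 difference was 0.41 ± 0.03 in AM and 0.20 ± 0.03 in PM.

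The genes that open S phase varied widely. E2f1, which encodes an activator of the replication genes, had 13, 14.4 and 16.3 FPKM in Bmal1-/- AM and 12.9, 14.7 and 16.5 FPKM in WT AM, a log2 difference of -0.01 ± 0.02. In PM it had 12.9, 13.7 and 15.1 FPKM in Bmal1-/- cells and 15.4, 17.3 and 18.4 FPKM in WT cells, without overlap and with a difference of -0.28 ± 0.02. The E-type cyclins differed from each other: Ccne2, at 0.202, 0.445 and 1.55 FPKM in Bmal1-/- PM against 1.72, 3.81 and 5.94 FPKM in WT PM, was lower by -1.58 ± 0.12 in PM and -1.56 ± 0.12 in AM, and Ccne1 gave -0.36 ± 0.08 and -0.44 ± 0.08. Of the licensing genes, Cdt1 was lower in AM (-1.04) and gave -0.80 in PM. Cdc6 gave -0.73 and -0.78, and the helicase cofactor Gins2 -0.24 and -0.68 in PM and AM. The Cdc6 medians were 0.457 FPKM in Bmal1-/- PM against 1.57 FPKM in WT PM. In AM they were 0.470 FPKM in Bmal1-/- cells against 1.53 FPKM in WT cells. At such low levels the 1 FPKM added before the logarithm shrinks a difference. Every library of Bmal1-/- lay below every WT library for 25 mitosis members in PM and 24 in AM, against 18% and 16.7% of genes tested, and for 15 and 16 replication members. Rrm1 in AM was the 1 member with every Bmal1-/- library above, against 17.5% of genes.

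**Figure D2:**
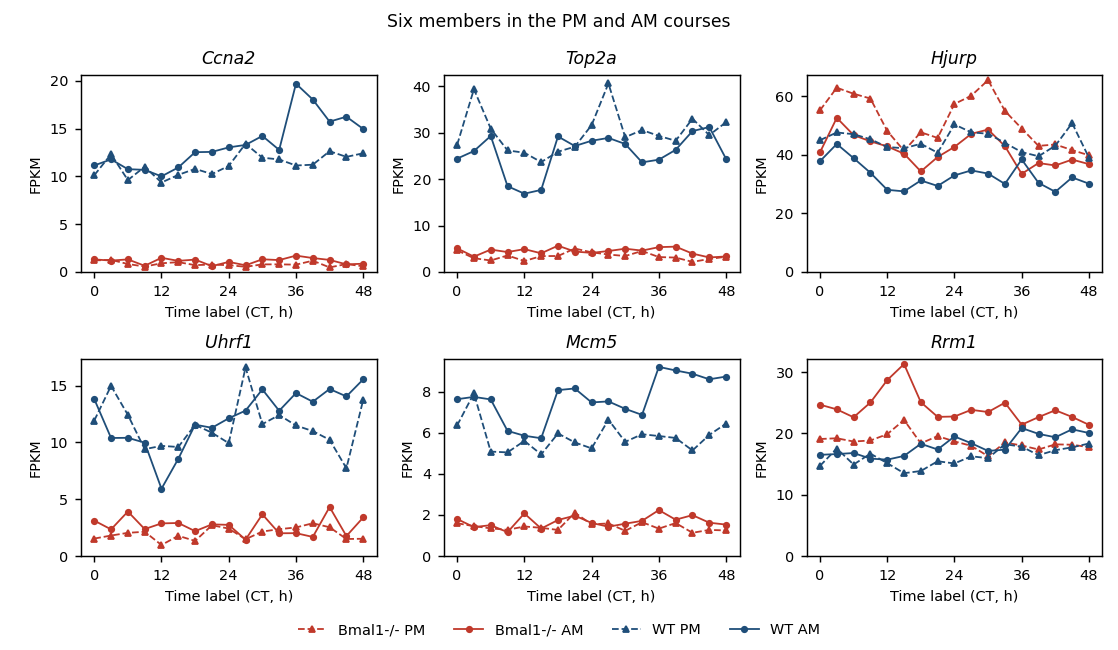
FPKM (vertical axis, from 0) of 6 members against the time label (CT, h) in the Bmal1-/- PM, Bmal1-/- AM, WT PM and WT AM courses, with 1 library per point. Ccna2, Top2a, Uhrf1 and Mcm5 lay lower in every Bmal1-/- library than in the WT libraries of the same course, while Hjurp overlapped and Rrm1 was higher in Bmal1-/- AM.

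CHR letters did not sort the mitosis members by their difference. The 17 mitosis members with CHR letters had a median log2 difference of -1.76 in PM and -1.65 in AM, and the 5 without (Ccnb1, Birc5, Cenpe, Nusap1 and Nuf2) had -1.77 and -1.75. Among replication members, the 12 with E2F-type letters had medians of -0.81 and -1.03, and the 5 without (Mcm2, Pcna, Tyms, Ccne1 and E2f1) had -0.36 and -0.49. The ranges overlapped, at -2.06 to 0.20 with and -1.13 to -0.09 without those letters in PM.

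The same genotype comparison was made at each of the 3 temperatures. In those fits 21 of 26 mitosis members and 19 of 21 replication members passed the filter. Bub1, Cenpf, Kif11, Ndc80, Nuf2, Ccne2 and Cdc6 fell short of a mean of 1 FPKM and were not tested. At 27 °C, 17 mitosis members were lower in Bmal1-/- cells and 1 was higher, against 7.08% and 6.38% of 13031 genes. At 32 °C, 3 were lower and 0 higher, against 7.59% of genes called lower and 6.96% higher, and at 37 °C 9 were lower and 0 higher, against 7.69% and 6.22%. The medians over the tested mitosis members were -1.28, -0.57 and -0.88, beside -0.01, -0.02 and -0.01 over all genes. Of the tested replication members, 2 were lower at 27 °C, 0 at 32 °C and 0 at 37 °C, with medians of -0.40, -0.17 and -0.44; 18, 16 and 17 of 19 passed an unadjusted p under 0.05, near the 84.9%, 85.8% and 84.7% of all genes that did. With 0.1 in place of 1 FPKM added before the logarithm, the mitosis counts at 32 and 37 °C were 12 and 17 in place of 3 and 9, and 5 replication members were lower at 37 °C in place of 0; from CT24 on 3 were. With median-of-ratios scaling 3 mitosis members were lower at 32 °C, as many as on the deposited scale. Hjurp was then called higher at 32 °C (1.006), which it was not on the deposited scale. Gm26377 held the shares of FPKM given above in the 32 °C libraries. From CT24 on, 10 mitosis members were lower at 27 °C in place of 17. Shares of all genes under these alternative settings, and those further below, are not given, so such counts have no background beside them.

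Ube2c, Cenpa and Kif20a were lower in Bmal1-/- cells in every setting. Cenpa had 0.904, 2.68 and 9.35 FPKM in Bmal1-/- cells at 27 °C against 12.9, 28 and 52.6 FPKM in WT cells. At 32 °C it had 0.643, 2.24 and 4.46 FPKM against 5.65, 8.82 and 15.1 FPKM in WT cells, and at 37 °C 1.23, 2.29 and 5.25 FPKM against 6.89, 10.2 and 12.4 FPKM in WT cells. No temperature showed overlap, and the log2 differences were -2.82 ± 0.09, -1.62 ± 0.09 and -1.62 ± 0.09. Kif20a, which shares exon bases with Cdc23 on the other strand, gave -2.23 ± 0.06, -1.03 ± 0.06 and -1.08 ± 0.06. Ube2c gave -1.27 ± 0.08, -1.13 ± 0.07 and -1.33 ± 0.07 at 27, 32 and 37 °C. Top2a was called lower at 37 °C (-1.70 ± 0.06) and missed 2-fold at 27 °C (-0.92 ± 0.06) and 32 °C (-0.98 ± 0.06). Cdk1 gave -0.03 ± 0.06, -0.01 ± 0.06 and -0.50 ± 0.06.

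Hjurp and Rrm1 were the members called higher in Bmal1-/- cells at a temperature. Hjurp had 46, 61.0 and 73.6 FPKM in Bmal1-/- cells at 27 °C against 17.7, 23.5 and 30.7 FPKM in WT cells, without overlap, and a log2 difference of 1.29 ± 0.04 (limma adjusted p = 6.16e-64). It gave 0.99 ± 0.04 at 32 °C, where the genotypes did not overlap, and 0.50 ± 0.04 at 37 °C, where they did. Rrm1 had 39.8, 41.9 and 44.8 FPKM in Bmal1-/- cells at 32 °C against 17.6, 19.1 and 20.1 FPKM in WT cells, and its difference of 1.10 ± 0.02 was called. At 27 and 37 °C Rrm1 gave 0.66 ± 0.02 and 0.87 ± 0.02, with every Bmal1-/- library above every WT library. Chaf1b gave 0.51 ± 0.05 at 27 °C and 0.54 ± 0.05 at 32 °C, under 2-fold. The 2 replication members called lower at 27 °C were Mcm5 (-1.23 ± 0.06) and Tyms (-1.26 ± 0.06). Over the whole list, Bmal1-/- libraries all lay below the WT libraries for 5, 6 and 11 mitosis members at 27, 32 and 37 °C, against 14.9%, 19.4% and 15.9% of genes tested, and for 1, 3 and 6 replication members. They all lay above for Hjurp at 27 and 32 °C, for Rrm1 at 27, 32 and 37 °C and for Chaf1b at 32 °C, against 13.9%, 17.7% and 13.9% of genes. The map of genotype differences by gene shows these patterns together.

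The 7 members that were not tested at these temperatures had low averages over all temperature libraries, though some WT libraries held several FPKM. Ndc80 had 0.0596, 0.269 and 1.25 FPKM in Bmal1-/- cells at 27 °C against 0.860, 2.91 and 8.07 FPKM in WT cells. Kif11 had 0.318, 0.597 and 0.760 FPKM in Bmal1-/- cells at 37 °C against 1.32, 1.85 and 2.70 FPKM in WT cells, without overlap. Cdc6 was near the floor everywhere, with medians at 27 °C of 0.308 FPKM in Bmal1-/- cells and 0.256 FPKM in WT cells. The medians of the other 4 (Bub1, Cenpf, Nuf2 and Ccne2) at 37 °C were 0.321, 0.193, 0.391 and 0.415 FPKM in Bmal1-/- cells, against 1.04, 1.02, 1.60 and 1.37 FPKM in WT cells.

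**Figure D3:**
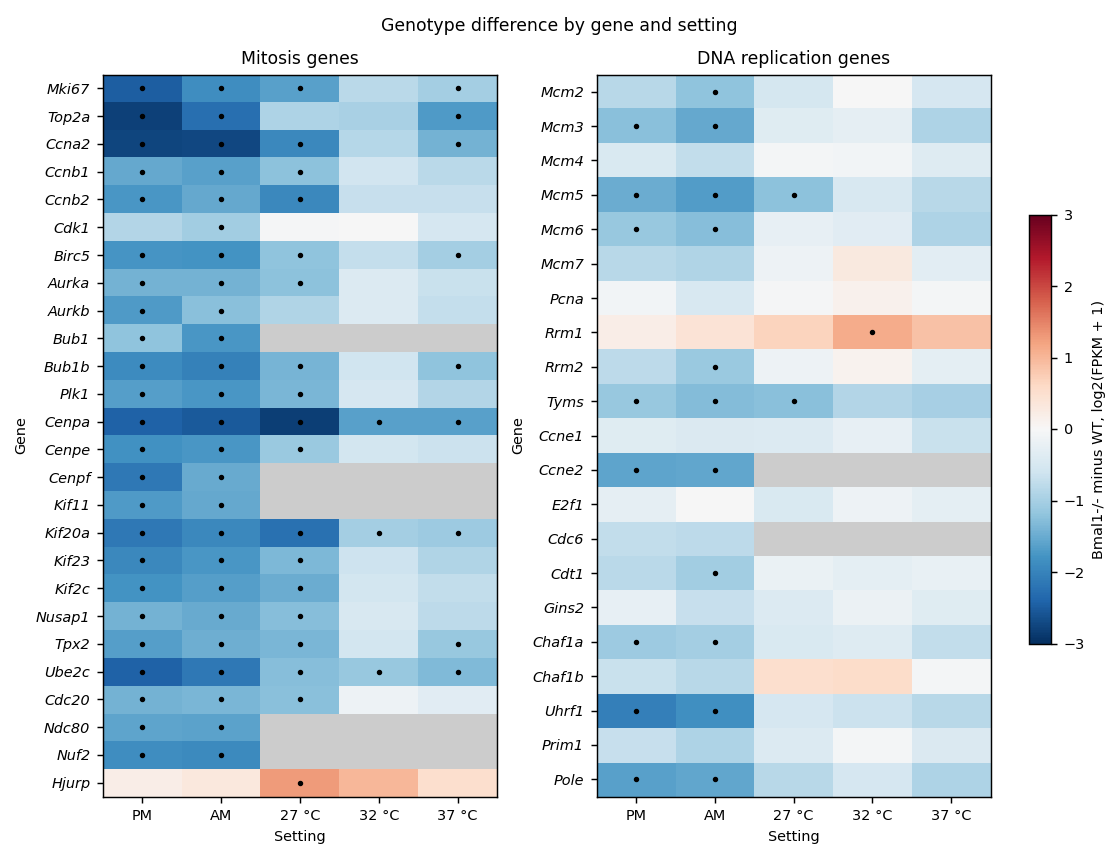
Colour gives the log2(FPKM + 1) difference of Bmal1-/- minus WT for each mitosis gene (left) and replication gene (right) in the PM, AM, 27, 32 and 37 °C courses (horizontal axis), with grey for members not tested and a dot where the difference was called. Most mitosis genes were lower in the PM, AM and 27 °C courses, with Cdk1 near 0 at 27 and 32 °C and Hjurp reaching 1.29 at 27 °C; among replication genes Rrm1 was above 0 in each setting.

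Temperature was compared within each genotype against 37 °C. With 1 course per temperature and genotype, temperature and culture cannot be told apart, and the 27 and 32 °C comparisons share the 37 °C libraries. All genes together shifted in the deposited values, with a median log2 difference of 0.21 in both genotypes at 27 °C and 0.13 in both at 32 °C, and values below are to be read beside that shift. In WT cells 4 mitosis members were higher at 27 than at 37 °C and 0 lower, against 8.38% of genes called higher and 5.21% lower. In Bmal1-/- cells 0 of 21 were called, against 7.64% higher and 4.04% lower among all genes, while 13 passed an unadjusted p under 0.05, against 86.2% of all genes. The medians were 0.17 in Bmal1-/- cells and 0.47 in WT cells. The macrophage marker sum was also higher at 27 °C in both genotypes, as given above.

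The 4 were Ccnb2, Cdc20, Cenpa and Kif20a. Ccnb2 had 3.17, 7.73 and 18 FPKM in WT cells at 27 °C against 1.33, 1.96 and 3.73 FPKM at 37 °C, with a log2 difference of 1.54 ± 0.07 (limma adjusted p = 1.89e-45) and some overlap. In Bmal1-/- cells it had 0.200, 0.953 and 5.33 FPKM at 27 °C and 0.488, 0.823 and 1.67 FPKM at 37 °C, a difference of 0.32 ± 0.07. Cdc20 had 5.42, 12 and 26.5 FPKM in WT cells at 27 °C against 2.41, 4.08 and 5.04 FPKM at 37 °C, without overlap, and gave 1.46 ± 0.07 in WT cells and 0.54 ± 0.07 in Bmal1-/- cells. Cenpa and Kif20a gave 1.37 ± 0.09 and 1.27 ± 0.06 in WT cells, and 0.17 ± 0.09 and 0.12 ± 0.06 in Bmal1-/- cells. Top2a ran the other way in WT cells, with 3.21, 7.42 and 20.3 FPKM at 27 °C and 10.7, 14.2 and 19.9 FPKM at 37 °C, a difference of -0.72 ± 0.06 that did not reach 2-fold. The difference of the temperature effects between genotypes was called for 3 of the 21 tested mitosis members, Ccnb2 (-1.23 ± 0.09), Cenpa (-1.20 ± 0.13) and Kif20a (-1.14 ± 0.08), against 1.67% of genes in that direction. With the CT14 pair kept under its labels 1 was called, before CT24 alone 8, and from CT24 on 1. Of the tested replication members limma called 0 for this difference, with 12 at an unadjusted p under 0.05, against 70.9% of all genes.

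For 32 against 37 °C limma called no mitosis member in either genotype on the deposited scale, and 10 of 21 in Bmal1-/- cells and 19 of 21 in WT cells passed an unadjusted p under 0.05, against 77.8% and 80.2% of all genes. With median-of-ratios scaling, which removes the shift of all genes, 3 were lower at 32 than at 37 °C in WT cells: Ccna2 (-1.005), Top2a (-1.10) and Ube2c (-1.06). With 0.1 FPKM added 3 were lower in WT cells and 1 in Bmal1-/- cells, and from CT24 on 3 in WT cells. The background in that comparison was 1.77% higher and 0.944% lower in Bmal1-/- cells, and 1.93% and 1.37% in WT cells. The medians were -0.10 in Bmal1-/- cells and -0.38 in WT cells, both below the shift of all genes. Of the replication members, Chaf1b was called in Bmal1-/- cells and none in WT cells, where 18 of 19 passed an unadjusted p under 0.05 (80.2% of all genes) and 1 was lower with 0.1 FPKM added.

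Among replication members, Chaf1b and Rrm1 were higher at 27 than at 37 °C in both genotypes, 2 of 19 tested in each. Over all genes, 7.64% in Bmal1-/- cells and 8.38% in WT cells were called higher. Chaf1b had 23.6, 33.1 and 37.5 FPKM at 27 °C, 9.07, 10.3 and 13.9 FPKM at 32 °C and 1.90, 3.24 and 4.78 FPKM at 37 °C in Bmal1-/- cells. In WT cells it had 18.1, 21 and 26 FPKM at 27 °C, 5.97, 6.81 and 8.01 FPKM at 32 °C and 2.38, 3.30 and 4.55 FPKM at 37 °C. The 3 temperatures did not overlap in either genotype, and the 27 minus 37 °C difference was 2.95 ± 0.05 (limma adjusted p = 7.62e-92) in Bmal1-/- cells and 2.39 ± 0.05 in WT cells. At 32 °C Chaf1b was called in Bmal1-/- cells (1.47 ± 0.05) and missed 2-fold in WT cells (0.88 ± 0.05).

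Rrm1 had 52.9, 57.7 and 64.8 FPKM at 27 °C, 39.8, 41.9 and 44.8 FPKM at 32 °C and 20.1, 25.0 and 30 FPKM at 37 °C in Bmal1-/- cells. In WT cells its values were 31.9, 36.1 and 46.1 FPKM at 27 °C, 17.6, 19.1 and 20.1 FPKM at 32 °C and 11.8, 13 and 15.6 FPKM at 37 °C. Neighbouring temperatures did not overlap in either genotype. The 27 minus 37 °C difference was 1.19 ± 0.02 in Bmal1-/- cells and 1.41 ± 0.02 in WT cells; rescaled by median-of-ratios factors, which remove the shift of all genes, the Bmal1-/- value was 0.95 and no longer 2-fold. Mcm7 gave 0.80 ± 0.04 in Bmal1-/- cells and 0.63 ± 0.04 in WT cells, and Pcna 0.52 ± 0.04 and 0.50 ± 0.04. In Bmal1-/- cells every 27 °C library lay above every 37 °C library for Mcm6, Mcm7, Rrm1, Chaf1a, Chaf1b and Pole and below for E2f1, against 23.1% of tested genes above and 8.29% below. In WT cells this held for Cenpa, Cdc20, Rrm1 and Chaf1b, each above, against 25.1% above and 10.1% below.

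**Figure D4:**
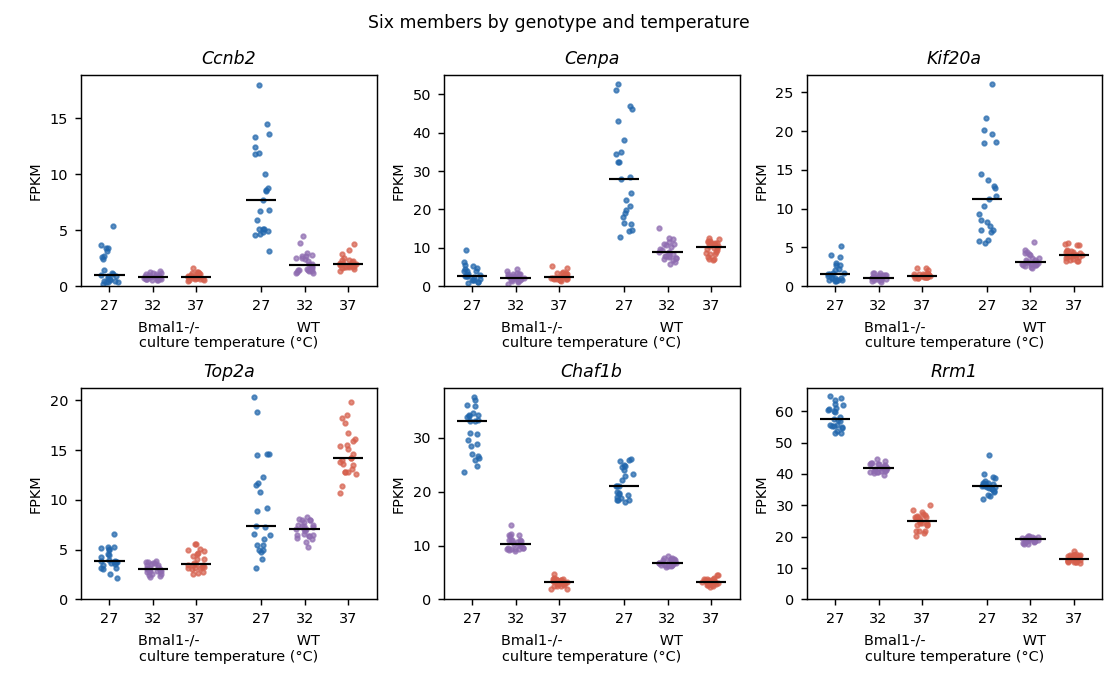
FPKM (vertical axis, from 0) of 6 members at 27, 32 and 37 °C in Bmal1-/- cells (left of each panel) and WT cells (right), with 1 point per library and a line at the median. Chaf1b and Rrm1 were ordered 27, 32, 37 °C from high to low in both genotypes, while Ccnb2, Cenpa and Kif20a were raised at 27 °C in WT cells with a wide spread.

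The wide spread at 27 °C in WT cells followed time. The linear trend over the course, in log2 units per 24 h, was negative for all 21 tested mitosis members in WT cells at 27 °C, and limma called each of them at an adjusted p under 0.05, against 17% of genes falling. Their median trend was -0.85 per 24 h, beside 0.01 for all genes. In Bmal1-/- cells at 27 °C 15 of 21 fell, with a median of -0.34, against 11.7% of genes. Of the tested replication members, 18 of 19 fell in WT cells (median -0.34). In Bmal1-/- cells 5 fell and 1 rose (median -0.07), against 11.7% and 11.4% of genes.

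The first 12 h of the course (6 libraries, CT0 to CT10) and the last 12 h (CT36 to CT46) show the size of the fall. Ccnb2 in Bmal1-/- cells had 0.200, 0.419 and 0.533 FPKM in the last window against 2.40, 3.41 and 5.33 FPKM in the first. In WT cells it had 3.17, 4.76 and 5.14 FPKM in the last window against 11.8, 13.4 and 18 FPKM in the first. Both genotypes thus had separate windows, with trends of -1.02 ± 0.09 in Bmal1-/- cells and -0.93 ± 0.09 in WT cells. Mki67 in WT cells had 1.87, 2.43 and 2.90 FPKM in the last window against 6.79, 7.82 and 10.8 FPKM in the first, and in Bmal1-/- cells 0.231, 0.279 and 0.319 FPKM against 0.897, 1.59 and 2.78 FPKM. Cenpa in WT cells had 12.9, 17.2 and 19.8 FPKM in the last window against 38.1, 46.5 and 52.6 FPKM in the first. Mcm5 in WT cells had 2.49, 2.93 and 3.45 FPKM against 8.85, 9.52 and 15.6 FPKM. Chaf1b did not share the fall, at 18.1, 20.3 and 25.9 FPKM in the last window against 18.4, 24.6 and 26 FPKM in the first in WT cells, with a trend of -0.02 ± 0.06.

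Trends differed between settings by direct tests. In WT cells the trend at 27 °C was lower than at 37 °C for 20 of 21 tested mitosis members, with a median difference of -0.99 per 24 h, against 13.2% of genes, and Hjurp was the member not called (-0.05 ± 0.07). In Bmal1-/- cells this held for 8, with a median of -0.16, against 13% of genes. Replication members gave 16 lower of 19 in WT cells, and in Bmal1-/- cells 2 lower (Cdt1 and Tyms) and 2 higher (Chaf1b and Rrm1, against 17.9% of genes). Without the filter, or as second day minus first day, 0 were lower in Bmal1-/- cells. Between genotypes at 27 °C, the trend was higher, that is less negative or more positive, in Bmal1-/- than in WT cells for 15 mitosis members and 13 replication members, against 7.39% of genes, and lower for 0, against 8.32%. The scale matters here, because adding 1 FPKM before the logarithm shrinks a fall that happens below 1 FPKM, as that of Mki67 in Bmal1-/- cells partly did. With 0.1 FPKM added, 8 of the mitosis members were called, and Mki67 turned to -0.11 against 0.31 ± 0.11. With the CT14 pair kept under its labels, 4 mitosis members were called. The count for the temperature effect in WT cells also differed by window, with 12 mitosis members higher at 27 than at 37 °C before CT24 and 1 from CT24 on, against 4 over the whole course. No share of all genes is given for these windows.

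**Figure D5:**
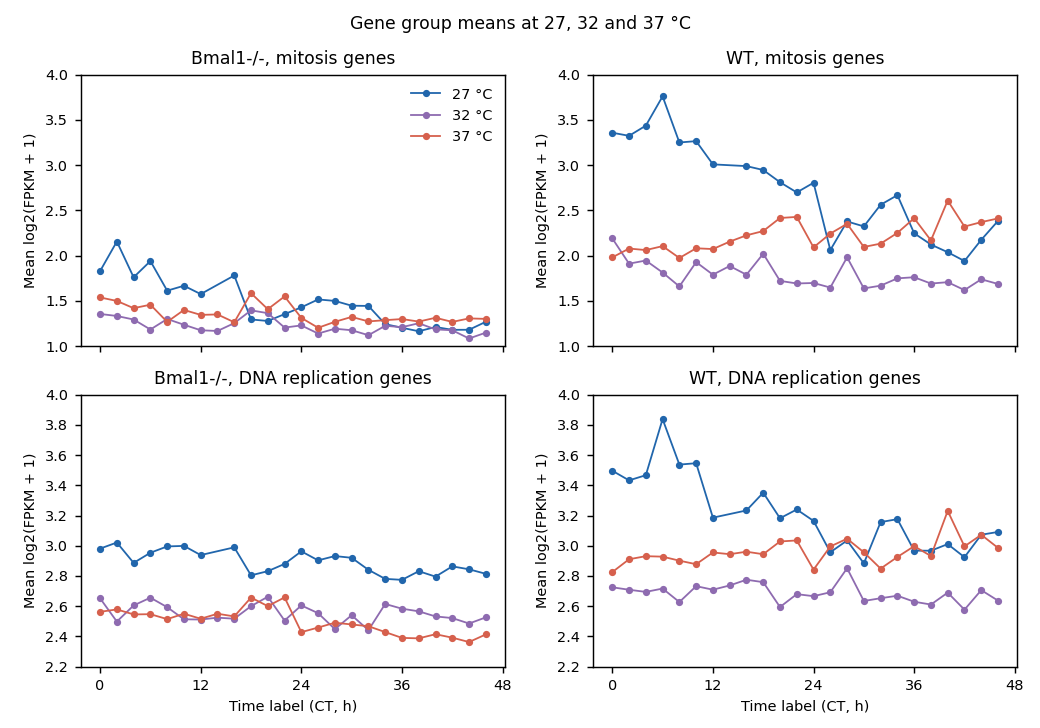
Mean log2(FPKM + 1) over the 26 mitosis genes (upper) and 21 replication genes (lower) in each library against the time label (CT, h), for Bmal1-/- cells (left) and WT cells (right) at 27, 32 and 37 °C. In WT cells at 27 °C the mitosis mean lay between 3.25 and 3.76 in the first 12 h and between 1.94 and 2.38 in the last 12 h; in Bmal1-/- cells it lay between 1.61 and 2.16 and between 1.17 and 1.27.

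The other courses gave these trends. In Bmal1-/- cells limma called 0 mitosis members in PM and in AM, with 3 and 0 at an unadjusted p under 0.05, against 17.8% and 20.2% of all genes. In WT PM 0 were called, with 1 at an unadjusted p under 0.05, against 29.7%, and in WT AM 15 of 26 mitosis members rose, with a median of 0.25 per 24 h, against 5.77% of genes. At 37 °C 6 mitosis members fell in Bmal1-/- cells, against 21.8% of genes, and 4 rose in WT cells, against 10.3%. At 32 °C 2 fell in Bmal1-/- cells and 7 in WT cells, against 7.33% and 15.3% of genes. Of the 19 replication members tested at 37 °C, 9 fell and 1 rose in Bmal1-/- cells, against 21.8% and 15.4% of genes. In WT cells at 37 °C 0 fell and 2 rose, against 16.3% and 10.3%. In AM 1 replication member rose and 1 fell in Bmal1-/- cells, against 3.52% and 4% of genes. In WT AM 5 rose, against 5.77%.

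The study asks, by its title, about circadian rhythms without Bmal1, and few members had a 24 h rhythm by the moderated F test of a cosine and sine. Hjurp was called in Bmal1-/- cells in PM, AM, 27 °C and 37 °C, with peaks at CT5.50, CT5.09, CT5.75 and CT5.11 and amplitudes, from mid-level to peak, of 0.25, 0.18, 0.18 and 0.23 log2 units. In those 4 courses 1, 1, 3 and 1 mitosis members were called, of 26, 26, 21 and 21 tested, against 3.02%, 3.40%, 9.85% and 8.46% of all genes. At 27 °C in Bmal1-/- cells Ube2c, Kif20a, Uhrf1 and Prim1 were called as well, with amplitudes of 0.35, 0.23, 0.34 and 0.21. E2f1 was called in Bmal1-/- cells at 37 °C with an amplitude of 0.10. In WT cells Mki67 was called in PM (amplitude 0.26, peak CT4.21), where 5.61% of genes were, and at 37 °C (0.22, CT17.57), where 4.92% were, and Ccnb1 at 37 °C (0.22, CT18.27). Over 27, 32 and 37 °C jointly, 2 of 21 mitosis members (Hjurp and Ube2c) and 2 of 19 replication members (Prim1 and Uhrf1) were called in Bmal1-/- cells, against 15.1% of genes, and 1 (Ccnb1) and 0 in WT cells, against 5.72%. No member of either group was called by limma in Bmal1-/- cells at 32 °C (2.06% of all genes called), in WT cells at 27 °C (2.15%), in WT cells at 32 °C (0.253%) or in WT AM (3.85%). At an unadjusted p under 0.05 these courses had 2, 1, 1 and 4 mitosis members and 2, 1, 1 and 2 replication members, against 10.7%, 14.7%, 7.31% and 21.1% of all genes. No test compared these shares of members with those of all genes.

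No member differed 2-fold between PM and AM. Called members numbered 0 of 47 in each genotype, against 0.519% of genes higher and 0.646% lower in PM in Bmal1-/- cells and 1.61% and 0.774% in WT cells. At an unadjusted p under 0.05, limma counted 16 mitosis and 14 replication members in Bmal1-/- cells and 15 and 14 in WT cells, against 66.5% and 69.2% of all genes. The largest member differences were -0.50 (Ube2c) and 0.50 (Prim1) in Bmal1-/- cells, and -0.50 (Ccne1) and 0.43 (Hjurp) in WT cells. All genes together shifted by a median of 0.08 in both genotypes.

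Genes of the same processes outside the list, and the regulators above them, were counted by the same calls. Of 39 other mitosis genes, 35 were tested in PM and AM; 26 were lower and 1 higher in Bmal1-/- PM, and 24 lower and 1 higher in AM. Ect2, an activator of RhoA in cytokinesis, gave the largest falls (-2.51 ± 0.09 in PM and -2.39 ± 0.09 in AM). Of 43 other replication genes, 42 were tested, with 13 lower in PM, 17 lower in AM and 0 higher. Over all genes, 8.23% (PM) and 7.78% (AM) were called lower and 7.35% and 6.86% higher. Exo1, a DNA exonuclease, gave -1.86 ± 0.08 and -1.73 ± 0.08, and Dbf4, the activator of the CDC7 kinase, -1.62 ± 0.05 and -1.73 ± 0.05. At 27 against 37 °C Dbf4 was higher in both genotypes, by 2.61 ± 0.04 in Bmal1-/- cells and 2.51 ± 0.04 in WT cells, beside Chaf1b.

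Of 19 RB, E2F and DREAM regulators, 16 were tested in PM and AM; 1 was lower and 2 were higher in Bmal1-/- PM, and 2 were lower and 1 higher in AM, near the shares of all genes called lower (8.23% and 7.78%) and higher (7.35% and 6.86%). Foxm1, the G2 activator, had 1.52, 2.68 and 3.65 FPKM in Bmal1-/- PM against 8.36, 10.1 and 14.2 FPKM in WT PM, and was lower by -1.64 ± 0.06 in PM and -1.25 ± 0.06 in AM. Mybl2, which encodes B-MYB, was lower in AM (-1.10 ± 0.10). E2f6, a repressor of the E2F family, had 10.2, 10.9 and 12.4 FPKM in Bmal1-/- PM against 3.59, 4.11 and 5.13 FPKM in WT PM, and was higher by 1.21 ± 0.04 in PM and 1.11 ± 0.04 in AM. Rb1, the retinoblastoma protein gene, was higher in PM (1.15 ± 0.11). Tfdp2, a partner of the E2F proteins, was higher at 27 than at 37 °C by 1.66 ± 0.04 in Bmal1-/- cells and 1.57 ± 0.04 in WT cells.

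Exons of 6 mitosis members and 5 replication members overlap a gene on the other strand in the annotation (GRCm38), among them Ccna2 with Exosc9 (510 bp), Ube2c with Tnnc2 (592 bp), Kif20a with Cdc23 (1271 bp), Gins2 with Gse1 (2758 bp) and Chaf1a with Ubxn6 (4648 bp). The libraries were stranded by the kit, but the sources used here do not say whether the counting used strand, so these values may include reads of the partner.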

How the data were processed

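The series holds 212 poly(A) RNA-seq libraries, of which 210 were used: 68 of PM and AM and 142 of the temperature courses. The authors deposited gene-level FPKM. TopHat2 2.1.0, TopHat, Cuffdiff and GRCm38 are named in the submitters' processing notes, with no role or order given. The deposited FPKM values hold no read counts; depth was estimated from 1357 genes whose low values step by whole reads (94.1% within 0.15 of a whole number).

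From these values, log2(FPKM + 1) was fitted with limma 3.58.1 (lmFit and eBayes with trend; R 4.3.3, package data.table, version 1.17.8). A gene was tested where its average reached 1 FPKM in the fitted libraries (13307 genes for PM and AM, 13031 for temperatures). Each course had its own level, linear time and 24 h cosine and sine. Benjamini-Hochberg adjustment ran over all genes tested. Level calls needed an adjusted p under 0.05 and 2-fold; trend and rhythm calls needed the adjusted p alone. The fit was tested on simulated data. Values are given for proliferation markers, for the members with the largest genotype or 27 °C differences, and for members that ran in the opposite direction. The members and lists were chosen with earlier results of these data known. Alternatives were another pseudocount, no filter, median-of-ratios scaling, the CT14 pair kept, WT AM CT36 left out, a time block, the second day minus the first, and time windows.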

Additional observations from a re-analysis of the deposited data

Results flagged for a closer look

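Some effects of temperature differed between the genotypes, or between temperatures, by a direct test of the difference. The log2 effect of 27 against 37 °C was smaller in Bmal1-/- than in WT cells by -1.23 for Ccnb2, -1.2 for Cenpa and -1.14 for Kif20a. The linear trend at 27 °C was higher in Bmal1-/- than in WT cells for 15 mitosis and 13 replication genes. Over all genes, 7.39% were called higher and 8.32% lower. This count depends on the scale: with 0.1 FPKM added 8 of the mitosis genes were called. With the CT14 pair kept, 4 mitosis genes were. Within Bmal1-/- cells the trend differed between 27 and 37 °C for 8 mitosis and 4 replication genes, of 21 and 19 tested. Over all genes in that comparison, 17.9% were called higher and 13% lower. Within WT cells it differed for 20 mitosis and 16 replication genes, against 19.1% of all genes higher and 13.2% lower. Each temperature and genotype had 1 course, so culture and condition cannot be told apart.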

How the results depend on the processing

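Adding 0.1 in place of 1 FPKM changed the mitosis counts lower in Bmal1-/- cells to 12 (32 °C, against 3) and 17 (37 °C, against 9), those higher at 27 than 37 °C in Bmal1-/- cells to 1 (against 0), the 27 °C trend difference to 8 (against 15), the WT trend over AM and PM to 4 (against 12), and WT mitosis rhythms to 0 (against 1) over temperatures and 0 (against 1) over AM and PM. It gave 1 (Bmal1-/-) and 3 (WT) mitosis genes lower at 32 than 37 °C (against 0), 1 mitosis gene that fell over AM and PM in Bmal1-/- cells (against 0), 1 replication gene higher and 1 lower at 32 than 37 °C in WT cells (against 0) and 5 lower in Bmal1-/- cells at 37 °C (against 0), and turned the Mki67 trend difference to -0.11. With the CT14 pair kept, the 27 °C trend difference was 4, the interaction 1 (against 3), mitosis rhythms 1 (against 2) in Bmal1-/- and 0 (against 1) in WT cells, and replication rhythms 0 (against 2). Without the filter, WT mitosis rhythms over temperatures were 0, Bmal1-/- replication rhythms 0, replication trends lower at 27 than 37 °C in Bmal1-/- cells 0 (against 2) and replication genes that rose over AM and PM in Bmal1-/- cells 1 (against 2). Without WT AM CT36, rhythms over AM and PM were 2 (against 1) for mitosis and 1 (against 0) for replication in WT cells, and 1 mitosis gene fell over AM and PM in Bmal1-/- cells (against 0). Median-of-ratios scaling gave 1 replication gene higher at 27 °C in Bmal1-/- cells (against 2) and 3 mitosis genes lower at 32 than 37 °C in WT cells (against 0). It also called Hjurp higher in Bmal1-/- than in WT cells at 32 °C (1.006), which the deposited scale did not. Second day minus first day gave 5 mitosis genes lower (against 8) and 4 replication genes higher and 0 lower (against 2 each) for 27 against 37 °C in Bmal1-/- cells, and 1 risen and 1 fallen over AM and PM (against 2 each). Windows, chosen after seeing the data, gave before CT24 12 mitosis genes higher at 27 °C in WT cells, an interaction of 8 and 1 replication gene higher at 37 °C (against 0), and from CT24 on 1, 1, 10 mitosis genes lower at 27 °C (against 17) and 1 replication gene (against 2), 3 mitosis genes lower at 32 than 37 °C in WT cells and 3 replication genes lower in Bmal1-/- cells at 37 °C (against 0). With the time label as a block shared by the genotypes, 0 of 13 counts moved beyond 1.5 times. The cause was not tested for any of these. Shares of all genes under these alternatives are not given, so the counts have no background beside them. Of 780 alternative values for 21 named members, 739 kept direction and call, 40 lost the call and 1 reversed. Most of these members were named for large differences in these same data, and only values called in the main fit were followed. Calls gained are not counted, so these numbers do not describe the whole list. No paired analysis was possible because the labels number no replicates, apart from that block, which matches libraries by harvest time and not by culture.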

Other observations

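Of 14 G1 cyclins, CDKs and CDK inhibitors, 3 were lower and 1 was higher in Bmal1-/- cells in both PM and AM. Over all genes, 8.23% (PM) and 7.78% (AM) were called lower and 7.35% and 6.86% higher. The 1 called higher was Cdkn1a, with 114.4, 123.3 and 135 FPKM in Bmal1-/- PM against 2.66, 3.49 and 5.69 FPKM in WT PM. Its log2 difference was 4.74 ± 0.05 in PM and 5.09 ± 0.05 in AM. The inhibitor genes Cdkn1c and Cdkn2a were lower, by -2.33 ± 0.08 and -1.53 ± 0.03 in PM. Ccnd2, cyclin D2, was lower at 27 than at 37 °C by -1.51 ± 0.05 in Bmal1-/- cells and -2.28 ± 0.05 in WT cells. Whether these levels bear on those of the mitosis and replication genes was not tested.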
